A study of Arabidopsis thaliana with 6 samples.

Results

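The 8 genes described here, rps2, rps3, rps4, rps14, rps15, rps16, rps18 and rps19, lie on the plastid chromosome of Arabidopsis thaliana and encode proteins of the small subunit of the plastid ribosome. They were taken by symbol and by chromosome from the probe sets that the array annotation assigns to 1 gene, and each of the 8 had 1 such probe set, among 69 plastid-encoded genes measured and 22746 probe sets in all. Mitochondrial genes of the same names were left out by the chromosome rule. The measurements come from 6 Affymetrix arrays, 3 of wild-type Col-0 leaves and 3 of leaves of pam48, a mutant in the Col-0 background whose second name is mterf6-1. The label "biological" precedes each replicate number, but the labels do not say how many plants a sample pooled or what kind of lesion the mutant allele carries. Both genotypes were raised on soil in days of 16 h light and 8 h dark (greenhouse, roughly 120 µmol photons per m2 per s), and same-age leaves were taken from rosettes with 8 leaves.

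The plastid ribosome is of the bacterial type and makes the proteins that the plastid genome encodes, among them core subunits of the photosystems, of the ATP synthase and of Rubisco. Its own proteins come from both genomes: part of them is encoded in the plastid, and the rest is encoded in the nucleus and imported. Most plastid genes are transcribed in polycistronic units, by a bacterial-type polymerase whose core is plastid-encoded and by a nuclear-encoded phage-type polymerase, and their RNAs are then cut, spliced and trimmed by imported proteins. The mTERF proteins belong to the imported factors, and in Arabidopsis mTERF6 is known for its part in the maturation of a plastid transfer RNA for isoleucine. The comparison of pam48 with wild type asks which transcripts differ in leaves of this mutant.

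Values are RMA summaries on the log2 scale, as deposited by the authors, and a change is the mean of pam48 minus the mean of wild type on that scale, with its standard error (SE) from limma, a linear model fitted to all probe sets. A probe set was called when its limma p-value, adjusted over all 22746 by the method of Benjamini and Hochberg, was under 0.05. Correlations between arrays lay between 0.952 and 0.992. Because each probe set has its own response, levels are compared between arrays. Between probe sets they serve only to rank signal or to choose a probe set, not to compare amounts of RNA. Labelled RNA was made by the standard Affymetrix protocol, which starts from poly(A) tails, whereas plastid RNAs carry short tails or none, so that the amount of plastid RNA itself was not measured. In bulk leaf RNA a change in the number of cells of a type and a change in RNA per cell cannot be told apart. Of 12 leaf markers 2 had a probe set with 1 gene, RCA and LHCB4.1, which lay between 13.89 and 14.37 on the 6 arrays and were not called (−0.07 ± 0.10 and −0.10 ± 0.10, SE). Of 8 markers of other tissues 3 were measured, between 3.20 and 9.74, and not called: CLV3 of the shoot apex (−0.31 ± 0.11), FMA of guard cells (−0.41 ± 0.13) and PYK10 of the root (1.23 ± 1.28, with an SD of 1.91 among the wild-type arrays). PYK10 varied widely in both genotypes, with 8.51, 5.21 and 5.19 in wild type and 5.56, 9.74 and 7.29 in pam48. Its highest value was thus on pam48 replicate 2. The part of these markers in the results was not tested. No probe set was listed for MTERF6, so the mutated gene itself was not examined by name.

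Of the 8 genes 2 rose in pam48, rps16 by 2.51-fold and rps4 by 2.27-fold, and none was called lower. The other 6 were not called, although their mean differences were all positive, between 0.05 for rps14 and 0.77 for rps2 on the log2 scale; over all probe sets 44.7% of differences were positive, but so were 52 of the other 61 plastid-encoded genes (85.2%) and 7 of 7 plastid large-subunit genes. Of all probe sets 0.598% were called higher and 0.18% lower. The median change of the 8 genes was 0.71, against −0.03 over all probe sets and 0.32 over the other 61 plastid-encoded genes, of which 6 were called higher (9.84%). Among these 61, the median was 0.59 for the 7 large-subunit genes. It was 0.80 for the 4 genes of plastid polymerase subunits, of which none was called, but 2 were with the replicate numbers as a block. Of these 4, rpoC1 had the largest change (2.29 ± 0.35, SE). Its limma adjusted p was 0.0508, and 0.0417 with the block. With the replicate numbers of the labels as a block, rps4 and rps16 were again the called genes of the 8. The block called 8 of the other 61 plastid-encoded genes higher, and 1.05% of all probe sets.

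In 7 of the 8 genes, rps14 being the exception, all 3 pam48 arrays lay above all 3 wild-type arrays. Such a separation with pam48 higher was seen in 9.14% of all probe sets, and in 47.5% of the other plastid-encoded genes (29 of 61). Among the latter it was seen in 6 of 7 large-subunit genes (85.7%) and in 3 of 4 polymerase genes (75.0%). The gap between the lowest pam48 array and the highest wild-type array was 0.91 for rps4 and 0.80 for rps16, and 0.02 for rps19, whose genotypes were barely apart.

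**Figure D1:**
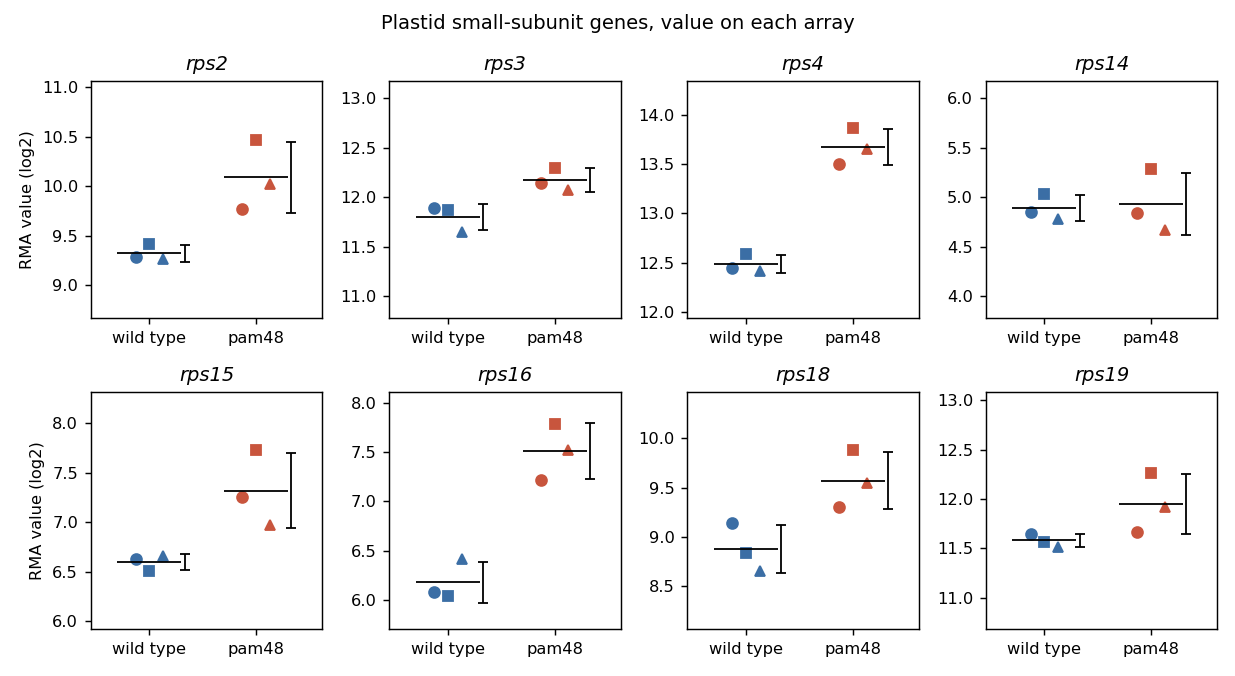
RMA values (log2, vertical axis) of the 8 plastid small-subunit genes on the wild-type arrays (blue) and the pam48 arrays (red), with circles for replicate 1, squares for replicate 2 and triangles for replicate 3. Each panel spans the same range of 2.4 log2 units; lines are means and bars SD (n = 3). The widest gaps between genotypes are those of rps4 and rps16, and in pam48 the square is highest in every panel.

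The first set of genes encodes proteins that in Escherichia coli bind the 16S ribosomal RNA of the body and platform of the subunit, S4, S15, S16 and S18. S4 starts the assembly of the body there. For rps4 (probe set 245009_at) the values were 12.45, 12.59 and 12.42 in wild-type replicates 1, 2 and 3 and 13.50, 13.86 and 13.65 in pam48 replicates 1, 2 and 3. Every pam48 array was thus at least 0.91 above every wild-type array, and the spread within either genotype was much smaller than the gap (12.49 ± 0.09 against 13.67 ± 0.18, SD, n = 3). The change was 1.18 ± 0.13 (SE, limma adjusted p = 0.0252, and 0.0266 with the block).

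S16 is an early-binding protein of the body in Escherichia coli, and plastid rps16 carries an intron. The values of rps16 (probe set 245049_at) were 6.08, 6.04 and 6.42 in wild type and 7.22, 7.78 and 7.52 in pam48, in the order of the replicates. The lowest pam48 array lay above the highest wild-type array, wild-type replicate 3. The change was 1.33 ± 0.18 (SE, limma adjusted p = 0.0410, and 0.0360 with the block), the largest of the 8 genes and the fourth in rank among 69 plastid-encoded genes; rps4 ranked 6.

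Both calls depended on which arrays were fitted. Leaving out pam48 replicate 1 kept them (limma adjusted p = 0.0217 for rps4 and 0.0254 for rps16), whereas leaving out any other array ended both. The limma adjusted p then lay between 0.0647 (rps4, without pam48 replicate 3) and 0.198 (rps16, without wild type replicate 1), while the changes stayed between 1.09 and 1.23 for rps4 and between 1.19 and 1.45 for rps16. This loss was not particular to these genes. Over all probe sets the 177 calls fell to 1 without any 1 of the wild-type arrays. They fell to 12 without pam48 replicate 2 and to 39 without pam48 replicate 3, and rose to 291 without pam48 replicate 1.

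The remaining genes of this set were separated by genotype but not called. S15 binds the central domain of the 16S RNA early in Escherichia coli. Its gene rps15 (probe set 244938_at) had values of 6.63, 6.51 and 6.66 in wild type and 7.25, 7.73 and 6.97 in pam48. The wild-type arrays lay within 0.15 of each other and the pam48 arrays were spread over 0.76, with replicate 3 nearest to wild type. The difference was 0.72 ± 0.20 (SE, limma adjusted p = 0.193), with a 95% interval from 0.24 to 1.19. S18 sits on the platform. For rps18 (probe set 244969_at) the values were 9.14, 8.84 and 8.66 in wild type and 9.30, 9.88 and 9.55 in pam48. Wild-type replicate 1 and pam48 replicate 1 were closest, 0.16 apart. The difference was 0.70 ± 0.19 (SE, limma adjusted p = 0.194), with a 95% interval from 0.24 to 1.16.

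The second set encodes S3, S14 and S19, proteins of the head of the subunit, and S2, which joins late near the border of head and body in Escherichia coli. S3 lies at the channel where the messenger enters. The values of rps3 (probe set 244984_at) were 11.89, 11.87 and 11.65 in wild type and 12.14, 12.30 and 12.07 in pam48. The genotypes were separated by 0.18, and the spread was alike in both (SD 0.13 and 0.12, n = 3). The difference was 0.37 ± 0.12 (SE, limma adjusted p = 0.256), with a 95% interval from 0.08 to 0.65, which leaves out a doubling.

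S19 contacts S13 in the head of the bacterial subunit. For rps19 (probe set 244986_at) the values were 11.65, 11.56 and 11.51 in wild type and 11.67, 12.26 and 11.92 in pam48. The first pam48 replicate was at the wild-type level, and the other two were higher. The difference was 0.37 ± 0.16 (SE, limma adjusted p = 0.395), with a 95% interval from −0.02 to 0.77, and it was 0.22 without pam48 replicate 2.

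S14 is a late-joining head protein in bacteria. The gene rps14 (probe set 245005_at) had values of 4.85, 5.03 and 4.78 in wild type and 4.84, 5.28 and 4.67 in pam48. The genotypes overlapped, with pam48 holding both the highest and the lowest array. The difference was 0.05 ± 0.18 (SE, limma adjusted p = 0.934), and its 95% interval ran from −0.38 to 0.47. The mean of this probe set was higher than that of 33.9% of all probe sets, so that it alone of the 8 fell among the dimmest 40%, and its signal over background was not examined.

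S2 serves as the docking site of S1 in Escherichia coli. The values of rps2 (probe set 244996_at) were 9.28, 9.42 and 9.26 in wild type and 9.77, 10.47 and 10.02 in pam48. The genotypes were separated by 0.35, and pam48 spread more widely (SD 0.36 against 0.09, n = 3). The difference was 0.77 ± 0.19 (SE, limma adjusted p = 0.155, and 0.0778 with the block), with a 95% interval from 0.32 to 1.22.

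Among the pam48 arrays the 8 genes shared a pattern. On pam48 replicate 2 each of the 8 had its highest value of the 3 pam48 arrays, and 5 of them had their lowest on replicate 1. The mean of the 8 genes lay 0.50, 0.98 and 0.58 above the wild-type mean on pam48 replicates 1, 2 and 3, while the wild-type arrays stayed within 0.05 of it. Among the wild-type arrays the order was shared in part. The highest value fell on replicate 1 for 3 genes, on replicate 2 for 3 and on replicate 3 for 2. The lowest fell on replicate 3 for 6 genes and on replicate 2 for 2. The genes rps16 (−0.10, −0.14 and 0.24 from its wild-type mean) and rps18 (0.26, −0.04 and −0.22) went opposite ways. The plastid photosynthesis genes lay 0.11, 0.57 and 0.19 above theirs, so pam48 replicate 2 stood out for plastid genes of both kinds. Control probe sets at the 3′ and 5′ ends of actin were furthest apart on that same array (3′ minus 5′, in log2: 2.75 there and 1.60 to 2.01 elsewhere), as were those of GAPDH (0.82 there and 0.12 to 0.47 elsewhere). Those of ubiquitin set it less apart, with 0.96 there, 0.93 on wild type replicate 3 and 0.51 to 0.81 on the other arrays. Without it the median change of the 8 genes was 0.53, and rps4 and rps16 still differed by 1.09 and 1.19. The root marker PYK10 was likewise highest on pam48 replicate 2 (9.74), with wild type replicate 1 next (8.51). The part of RNA integrity or of other tissue in the values of the 8 genes was not tested.

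**Figure D2:**
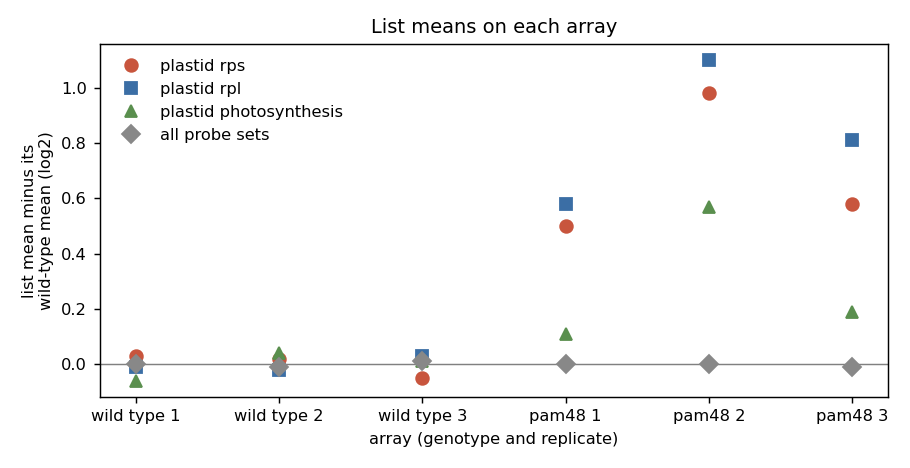
Mean of each gene list on each array minus its mean over the wild-type arrays (log2, vertical axis), for the 8 plastid small-subunit genes (red circles), 7 plastid large-subunit genes (blue squares), 43 plastid photosynthesis genes (green triangles) and all probe sets (grey diamonds). The 3 pam48 arrays lie above wild type for the plastid lists, most on replicate 2, where the small-subunit mean is 0.98. All probe sets stay within 0.01 of 0, which is no separate result, because RMA normalizes the arrays to each other.

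Across the 6 arrays the values of each gene correlated with the mean of the other 7 at a Pearson r of 0.92 to 0.98, except rps14 with 0.40. Once the genotype means were subtracted, r lay between 0.53 (rps16) and 0.94 (rps2 and rps19), and for rps14 it was 0.81. These values describe 6 arrays, which all the genes share. By Pearson r over the 6 arrays the 5 most similar of 13348 other genes were AT3G15351, AT5G38210, AT1G67470, AT3G07860 and AT1G35190, with r from 0.994 to 0.996. All 5 are nuclear genes, none was called, and their differences ran from 0.20 for AT3G15351 to 0.71 for AT3G07860. Pearson r takes no account of the size of a change. These r are the highest of 13348, each over 6 arrays, and were not tested.

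Set against other plastid genes, the small-subunit genes were higher in pam48 relative to the photosynthesis genes on every array, in a design too small for the permutation test to pass 0.05. The mean of the 8 genes minus the mean of 43 photosynthesis genes, taken relative to wild type, was 0.39, 0.40 and 0.39 on the pam48 arrays and 0.09, −0.03 and −0.06 on the wild-type arrays. The genotypes did not overlap, and pam48 replicate 2 did not stand apart in this measure. The difference between genotypes was 0.40 (SD 0.08 in wild type and 0.01 in pam48, n = 3; two-sided exact permutation p = 0.1, and no smaller value can arise with 3 arrays a genotype), and 0.62 with medians of the lists in place of means (exact permutation p = 0.1). Against the mean of 7 large-subunit genes the same measure was 0.04, 0.04 and −0.08 in wild type and −0.08, −0.12 and −0.23 in pam48. To 2 decimals wild-type replicate 3 and pam48 replicate 1 were equal, and the difference was −0.14 (exact permutation test, two-sided, p = 0.1); it was 0.14 when medians of the lists were used in place of means (p = 0.3), so it had no stable direction.

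With each array centred on the median of the other 61 plastid genes, which shifts the median change of all probe sets to −0.38, neither rps4 nor rps16 was called. Their changes were then 0.82 (limma adjusted p = 0.254) and 0.97 (limma adjusted p = 0.159), and the median of the 8 genes was 0.35. Under this scaling rps14 was at −0.31, lower in pam48 than the median plastid gene, though not called (limma adjusted p = 0.477).

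Of the other parts of the plastid ribosome, the large-subunit genes of the plastid had 2 of 7 members called higher, rpl14 (1.18 ± 0.17, limma adjusted p = 0.0450) and rpl16 (1.01 ± 0.14, limma adjusted p = 0.0439), and a median change of 0.59. Each of these was called in 1 of the 6 fits without an array (limma adjusted p up to 0.212 for rpl14 and 0.207 for rpl16). With the block 3 of the 7 were called, rpl20 being added. The nuclear-encoded proteins of the same ribosome were measured for 3 of 14 listed small-subunit loci and 7 of 25 large-subunit loci. None of the 10 was called, and an unadjusted p under 0.05 was reached by 0, where 13.5% of all probe sets reached it. The median changes were −0.02 for the small subunit, with AT1G64510 at −0.09 ± 0.15, AT3G13120 at −0.02 ± 0.15 and AT5G24490 at 0.05 ± 0.15 (SE), and 0.11 for the large subunit. Their 95% intervals all lay between −0.44 and 0.58. For ribosomal proteins of the mitochondrial genome the search covered only some symbols, and only probe sets whose gene had no chromosome assigned. It found none, so these proteins were not examined.

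No transcription unit partner was listed for rps4 and rps16, so their nearest measured neighbours are given as a description only. Whether these genes share RNAs with their neighbours was not examined. The rps4 gene has ycf3, a gene needed to assemble photosystem I, as its nearest measured neighbour on one side and ndhJ, for a subunit of the NDH complex, on the other. In pam48 ycf3 rose by 2.04 ± 0.14 (SE, limma adjusted p = 0.00870), a call kept in 3 of the 6 fits without an array, while ndhJ was at −0.30 ± 0.13 (SE, limma adjusted p = 0.389). The rps16 gene lies between matK, for a splicing factor of plastid introns, at 0.92 ± 0.19 (SE, limma adjusted p = 0.114), and psbK, for a small subunit of photosystem II, at −0.19 ± 0.21 (SE, limma adjusted p = 0.733). Both called genes thus had a neighbour with a large positive difference on one side, not called for matK, and one with a small negative difference on the other. Uneven neighbours were not particular to them. For rps2, not called, rpoC2 was at 1.13 and atpI at 0.08. For rps18, not called, rpl20 was at 2.09 and rpl33 at 0.11. The neighbours of rps3 (1.01 and 0.50) and rps19 (0.50 and 0.18) were less uneven. Around rps14, psbZ and psaB of the photosystems were at 0.20 and 0.14 and were not called either.

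**Figure D3:**
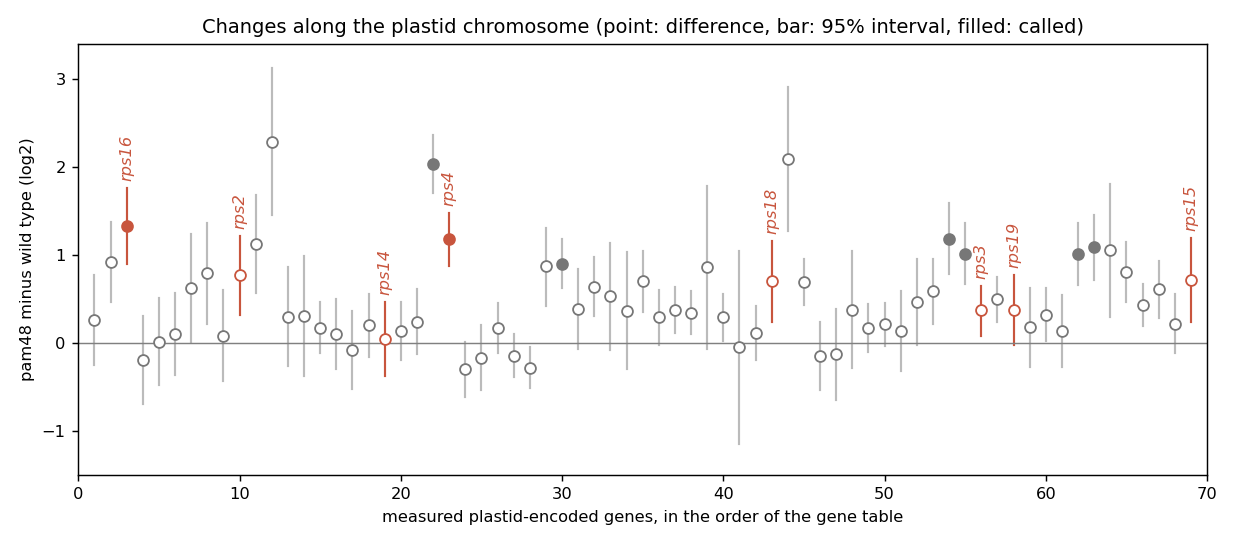
Change between pam48 and wild type (log2, vertical axis) of the 69 measured plastid-encoded genes in the order of the gene table (horizontal axis), with 95% limma intervals as bars and filled points for called genes. The small-subunit genes, in red, are spread along the chromosome, and their changes range from 0.05 (rps14) to 1.33 (rps16).

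For 6 of the genes, measured partners were taken from a list of transcription units. Each gene was set against the mean of its partners, relative to wild type. Whether rpl20, listed for rps18, shares a transcript with it was not examined. Two-sided exact permutation tests were made for these 6, which cannot give less than 0.1 each, and none passed after adjustment over the 6. The rps2 gene heads the unit of atpI, atpH, atpF and atpA, which encode ATP synthase subunits. Relative to these 4 genes it was at 0.06, 0.14 and −0.21 in wild type and at 0.38, 0.30 and 0.42 in pam48, so that all pam48 arrays were higher. The difference was 0.37 (exact permutation p = 0.1, adjusted p = 0.2), but 0.06 (exact permutation p = 0.7) against the median of the 4 partners in place of their mean. The partners themselves were uneven, with atpH at 0.79 ± 0.24, atpF at 0.63 ± 0.25, atpA at 0.10 ± 0.20 and atpI at 0.08 ± 0.22 (SE), none of them called. On its other side rps2 adjoins rpoC2, for a polymerase subunit, which was at 1.13 ± 0.23 (SE, limma adjusted p = 0.108, and 0.0447 with the block).

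The genes rps3 and rps19 lie in the large ribosomal protein unit, with rpl22, rpl16, rpl14, rpl36 and rpoA as measured partners. Relative to these 5, rps3 was at 0.05, 0.03 and −0.08 in wild type and −0.21, −0.46 and −0.48 in pam48. Likewise rps19 was at 0.03, −0.05 and 0.01 in wild type and −0.46, −0.27 and −0.40 in pam48. Both were thus lower against their unit on every pam48 array than on any wild-type array, by 0.38 each (exact permutation p = 0.1, adjusted p = 0.2). Against the partner median the differences were −0.36 for rps3 (exact permutation p = 0.2) and −0.35 for rps19 (p = 0.1). As they share the partners, these are not separate observations. Within the unit the changes of rpl14 (1.18) and rpl16 (1.01) were called, while rpl36 (0.59), rpl22 (0.50), rpoA (0.47), rps3 (0.37) and rps19 (0.37) were not.

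The rps18 gene lies between rpl33 and rpl20, which encode large-subunit proteins. Its neighbours differed widely, rpl33 at 0.11 ± 0.13 (SE, limma adjusted p = 0.736) and rpl20 at 2.09 ± 0.34 (SE, limma adjusted p = 0.0628, and 0.0306 with the block). Against their mean rps18 was at 0.35, −0.04 and −0.31 in wild type and −0.31, −0.59 and −0.32 in pam48, and wild-type replicate 3 fell among the pam48 arrays. The difference was −0.41 (exact permutation p = 0.2, adjusted p = 0.3), and −0.23 without wild type replicate 1. With its own change of 0.70, rps18 lay above rpl33 and below rpl20. The direction of this difference thus depended on which neighbour was taken.

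The genes rps14 and rps15 differed from the means of their units by less than the spread between replicates. Against psaA and psaB, which encode the core proteins of photosystem I, rps14 differed by −0.14 between genotypes, with SDs of 0.27 in wild type and 0.19 in pam48 (n = 3, exact permutation p = 0.5, adjusted p = 0.6). The unit of rps15 holds ndhH, ndhA, ndhI, ndhG, ndhE, psaC and ndhD, mostly for subunits of the NDH complex. Against the mean of these 7, rps15 differed by −0.03, with SDs of 0.10 and 0.24 (n = 3, exact permutation p = 0.9, adjusted p = 0.9). Within the unit the called genes were psaC (1.09 ± 0.16, limma adjusted p = 0.0439, and 0.0508 with the block) and ndhD (1.01 ± 0.15, limma adjusted p = 0.0466), each in 1 of the 6 fits without an array, and ndhH, the nearest measured neighbour of rps15, was at 0.22 ± 0.14 (SE, limma adjusted p = 0.554).

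**Figure D4:**
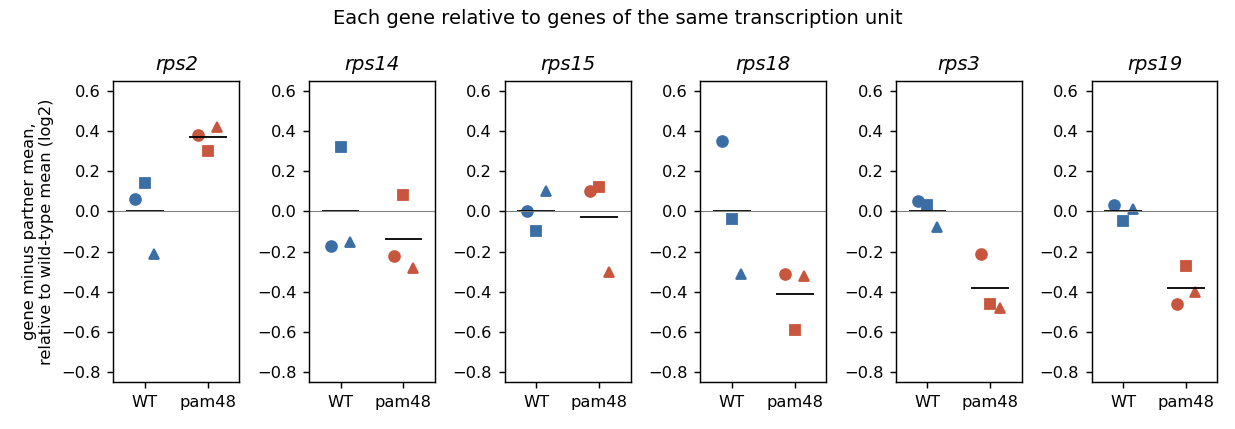
Value of each gene minus the mean of its listed measured partners, relative to the wild-type mean (log2, vertical axis), on wild-type (WT, blue) and pam48 (red) arrays, with circles, squares and triangles for replicates 1, 2 and 3 and lines for means. For rps18 the partners are its neighbours rpl33 and rpl20, whose changes differed widely. Against these partner means the pam48 arrays lie above wild type for rps2 (the difference is 0.37, and 0.06 against the partner median) and below it for rps3 and rps19, and the genotypes overlap for rps14, rps15 and rps18.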

How the data were processed

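The data are 6 arrays, 3 of each genotype. The deposited log2 values, 1 per probe set and array, were computed by the authors using RMA, per the submitters' processing notes. Its version, the probe set definition and any build were not given in the sources used here. The log2 scale was inferred from the range of the values. Of 22810 rows 64 were control probe sets. Genes were named from GEO's platform annotation (1 gene for 13513 probe sets, several for 503, none for 8730), and the TAIR10.1 gene table was used only to update names and for chromosome and gene order. A gene with several probe sets was represented by that of highest mean.

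Genotypes were compared in R 4.3.3 by limma 3.58.1, with lmFit, eBayes, two-sided p-values and Benjamini-Hochberg adjustment over 22746 probe sets. The fit was also run on simulated data with independent noise, where brighter probe sets had changes larger than any of the 8 genes. That run does not show how the fit performs for changes of the size seen here. Differences between gene lists were tested by exact permutation over the arrays. Members, lists and tests were chosen with earlier results of these data known, and the named genes were all 8 members, their partners and neighbours, the 5 genes most alike in pattern and called members of other lists. Same-numbered arrays deviated together (correlations of 0.535, 0.204 and 0.536 for numbers 1, 2 and 3, each above 0.1). A fit with the replicate numbers as a block was therefore run beside the main fit. The main fit, its intervals and the permutation tests took no account of such pairs. The fit with the block is given where it changes the call of a plastid-encoded gene and beside some other results. The alternatives were quantile normalization, centring on the array median or on the other plastid genes, dropping the dimmest 40% of probe sets, a robust eBayes with trend, weighted arrays, each array left out in turn, a threshold of 0.01, medians of lists and probe sets of several genes. The number of arrays limits the precision.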

Additional observations from a re-analysis of the deposited data

How the results depend on the processing

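The calls of rps4 and rps16 were kept with the replicate block, median centring, quantile normalization, array weights, the trend and robust settings and without dim probe sets (which left 7 of the 8 genes), and the block changed no other call among the 8 genes. No gene of the 8 had an adjusted p under 0.01. The number of the 8 genes called was 0 to 2 when 1 array was left out. Over all probe sets 177 were called, 412 with the replicate block, 351 with array weights, 8 at an adjusted p under 0.01, and 1 to 291 when 1 array was left out; the cause was not tested. The median change of the 8 genes was 0.35 when centred on the other plastid genes, a scale that by construction subtracts their shift. The difference between the small-subunit and large-subunit lists was 0.14 with medians, and that to the photosynthesis list 0.62 with medians. The difference of rps14 turned negative with median centring (−0.01), array weights (−0.06) and centring on the plastid genes (−0.31), and spanned −0.13 to 0.18 when 1 array was left out. When 1 array was left out, rps14 against its partners spanned −0.25 to 0.02 and rps15 against its partners −0.10 to 0.11. With the partner median rps15 was at −0.16 and rps2 at 0.06. The signal over background was not examined.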

Other observations

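Further plastid genes of the small subunit were measured by probe sets to which the annotation assigns more than 1 gene entry, because the gene is annotated more than once. The rps7 gene, for a protein that in Escherichia coli starts the assembly of the head, had values of 12.22, 12.26 and 12.22 in wild type and 12.83, 13.34 and 12.91 in pam48. The genotypes were separated by 0.57, and the difference of 0.79 ± 0.15 (SE, limma adjusted p = 0.0928, and 0.0663 with the block) was not called. The rps12 gene, whose RNA is joined from separate transcripts by trans-splicing, had probe sets that disagreed. Its probe set 244940_at read 10.52, 10.71 and 11.01 in wild type and 11.34, 12.02 and 11.42 in pam48, a difference of 0.85 ± 0.22 (SE, limma adjusted p = 0.172). Its probe set 244939_at read 6.73, 6.52 and 7.31 in wild type and 6.07, 6.80 and 6.14 in pam48, with overlapping genotypes and a difference of −0.52 ± 0.27 (SE, limma adjusted p = 0.473). Neither was called, and whether the probe sets differ from each other was not tested. With rps7 and the brighter rps12 probe set added to the 8 genes, the median change was 0.74 and 2 genes were called.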
